A study of Mus musculus with 12 samples.

Results

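The nuclear receptor genes of mouse liver other than the REV-ERB and ROR families and Thra were described across 12 livers. The rule listed 33 gene symbols, of which 30 had at least 10 reads in at least 3 samples, against 14532 of all 38926 gene symbols in the count files. The 3 receptors below this minimum were Vdr (0 to 3 reads per sample), Hnf4g (1 to 6 reads) and Nr4a3 (0 to 4 reads). All 30 others were among the 14488 genes that entered the fit. Poly(A) RNA of whole liver was sequenced from 3 wild-type and 3 Rev-erbα-/- mice killed at zeitgeber time 8 (ZT8, 8 h after lights on) and from 3 mice of each genotype at ZT20, in the dark phase. Per the labels, all mice were 12 weeks old and of the mixed 129Ola/C57BL6 background, and the animals were kept in 12 h of light and 12 h of darkness without further treatment. The Rev-erbα-/- mice lack the receptor in the whole body, so the liver cannot be told apart from the rest of the animal as the origin of a difference. Nothing in the labels gives the litters, and the p-values measure the spread between these mice.

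Nr1d1, the gene that encodes REV-ERBα, had 129, 96.2 and 75.3 CPM (the count of a gene relative to its library, scaled by the trimmed mean of M-values, TMM) in the wild-type mice at ZT8, and 63.0, 71.9 and 80.6 CPM in the Rev-erbα-/- mice. Reads of the targeted gene were thus present in the Rev-erbα-/- libraries, and the ranges of the genotypes overlapped. Without both wild-type livers described next, Nr1d1 was called lower in Rev-erbα-/- mice at ZT8. Arntl, which REV-ERBα represses, was at 0.448 to 0.796 CPM in the wild-type and at 22.7 to 25.7 CPM in the Rev-erbα-/- mice at ZT8, as the labels have them. The libraries held 17641809 to 26060192 reads assigned to genes, so that 3 reads correspond to 0.115 to 0.170 CPM. The wild-type ZT8 replicates 2 and 3 stood apart from the other 10 livers in genes of the acute-phase response: Saa1, a serum amyloid, was at 4972 and 6489 CPM in them and at 21.2 to 96.8 CPM in the others. The calls for receptors that rest on wild-type ZT8 were therefore also made without both livers, as were those of the companion gene lists, which leaves a single wild-type mouse at ZT8 that is assumed to vary like the other groups. The hepatocyte gene Alb was at 33751 to 77215 CPM, while 3 acinar cell markers summed to at most 0.156 CPM and 3 adipocyte markers to at most 0.178 CPM. In whole liver, fewer cells of a type and less RNA per cell cannot be told apart.

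Nuclear receptors are transcription factors that bind DNA through zinc fingers and respond, where a ligand is known, to small lipophilic molecules. In the liver they link bile acids (FXR, encoded by Nr1h4), oxysterols (LXRα and LXRβ, encoded by Nr1h3 and Nr1h2), fatty acids (PPARs), foreign compounds (PXR and CAR, encoded by Nr1i2 and Nr1i3) and hormones to the transcription of metabolic genes. Many of them bind DNA as partners of an RXR, while HNF4α acts as a homodimer that maintains the hepatocyte programme, and SHP (Nr0b2) lacks a DNA-binding domain and represses other receptors. REV-ERBα is itself a nuclear receptor that represses transcription, and its level in the liver is high around ZT8 and low around ZT20.

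Levels were compared between receptors per exon length, as RPKM (CPM per kilobase of exon). Hnf4a was the highest with a mean of 174 RPKM over the 12 livers, followed by Rxra (98.0 RPKM), Nr1h4 (74.3 RPKM), Nr1h3 (42.9 RPKM) and Ppara (40.3 RPKM). Nr0b2, Nr1i3 and Nr1i2 came next with 33.6, 32.9 and 32.9 RPKM, and their order cannot be given, since Nr0b2 alone ranged from 2.52 to 71.0 RPKM. The level of Nr1i3 is also uncertain, since 74.9% of its exon bases are shared with Tomm40l on the opposite strand. Nr3c1, the glucocorticoid receptor gene, had 16.2 RPKM, and the other steroid receptors Nr3c2 (mineralocorticoid receptor) and Esr1 (oestrogen receptor α) had 3.19 and 2.38 RPKM. At the lower end Nr4a1, Nr2f1 and Nr4a2 had 0.277, 0.141 and 0.0784 RPKM.

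**Figure D1:**
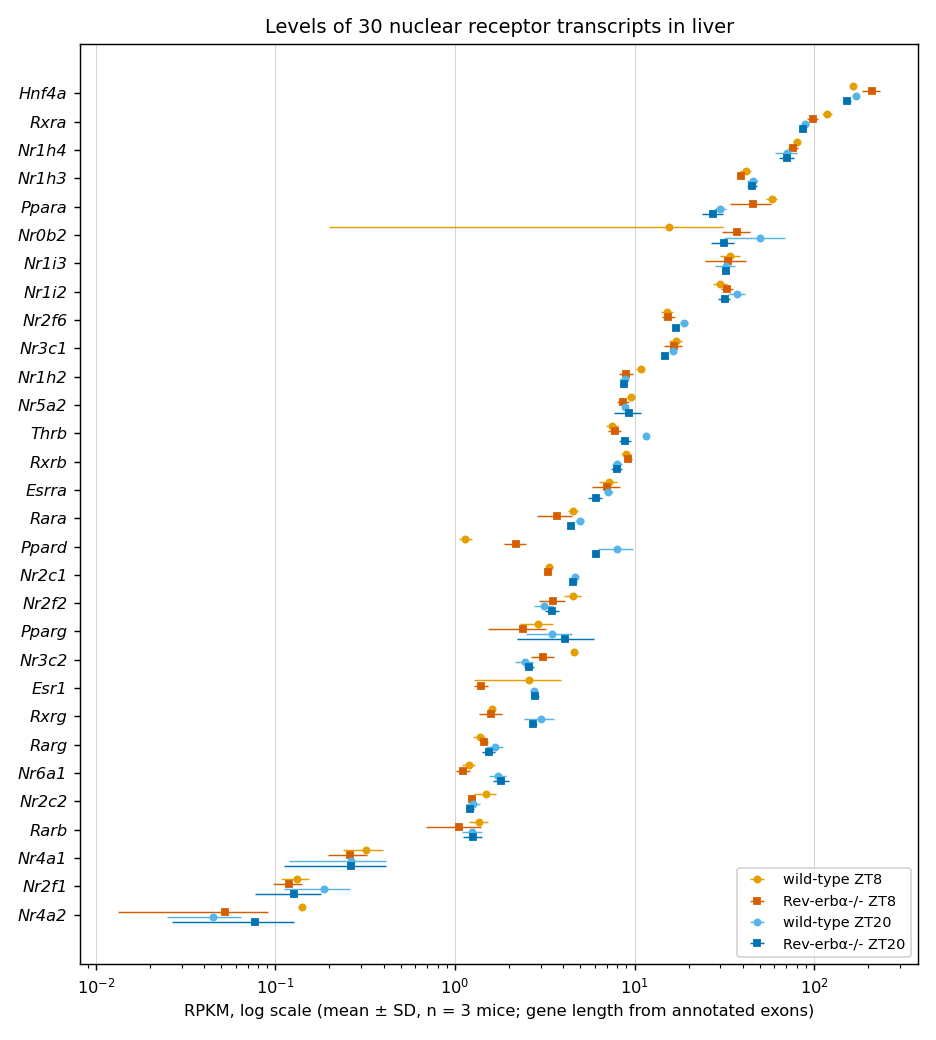
Mean level of each of the 30 receptors (rows) in RPKM on a log scale, with the SD over 3 mice, in the 4 groups (colours; circles wild-type, squares Rev-erbα-/-). Hnf4a (174 RPKM) is at the top and Nr4a2 (0.0784 RPKM) at the bottom, and the group means of Ppard run from 1.14 to 8.02 RPKM.

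Within the families 1 member carried most of the level. Rxra made up 89.0% to 91.8% of the summed RPKM of the 3 RXR genes in the 4 groups, and Nr1h3 made up 79.4% to 83.8% of both LXR genes. Nr2f6 made up 76.5% to 85.0% of the 3 COUP-TF genes, and Rara 59.2% to 63.0% of the 3 retinoic acid receptor genes. The shares in both of these families are uncertain. Exon bases of Nr2f6 (54.4%) and of Rarb (38.4%) are shared with genes on the opposite strand, and the counting did not use strand. The make-up of several families separated by time. The share of Rxrg was 1.22% to 1.27% in wild-type mice at ZT8 and 2.48% to 3.64% at ZT20, and 1.27% to 1.66% and 2.78% to 2.88% in Rev-erbα-/- mice. The share of Nr1h2 was 19.1% to 21.4% at ZT8 and 15.97% to 16.5% at ZT20 in wild-type mice, and that of Nr2f6 was 75.2% to 77.6% and 83.9% to 86.2%. None of these shares overlapped between the times. In Rev-erbα-/- mice the share of Nr1h2 did not overlap either (17.8% to 19.8% at ZT8, 15.8% to 16.6% at ZT20). That of Nr2f6 did overlap (79.5% to 82.9% at ZT8, 81.5% to 84.3% at ZT20). Ppara made up 93.4% ± 1.2 (SD, n = 3) of the family in wild-type mice at ZT8 and 72.2% ± 2.4 at ZT20. The share of Ppard went from 1.84% ± 0.058 to 19.4% ± 4.5 in wild-type mice and from 4.44% ± 0.82 to 16.3% ± 0.70 in Rev-erbα-/- mice. Neither the shares of Ppara nor those of Ppard overlapped between the times in either genotype. The summed RPKM of the RXR genes, the shared partners, was 129 ± 7.4 in wild-type mice at ZT8 and 100.3 ± 4.7 at ZT20, and 109 ± 7.0 and 97.0 ± 4.6 in Rev-erbα-/- mice.

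The comparison of ZT20 with ZT8 in wild-type mice asked which receptors differ between the light and the dark phase. Of the 30 receptors, 13 passed an adjusted p of 0.05 (edgeR quasi-likelihood test, Benjamini-Hochberg over all genes), against 27.7% of all genes tested. 7 were higher at ZT20 (background 13.8%) and 6 were lower (background 13.9%). The 13 and the 6 lower include Nr4a2, which passed the filter on low counts only through the wild-type ZT8 group, where it was high. Its call was favoured by that filter. The median size of the difference was 0.28 on the log2 scale for the receptors and 0.23 for all genes. In Rev-erbα-/- mice 6 receptors passed, 4 higher and 2 lower, against 17.5% of all genes (8.79% higher, 8.67% lower). Without both wild-type livers of high Saa1, 8 receptors passed in wild-type mice. Nr1h2, Nr1i2, Nr2f6, Nr4a2, Nr6a1 and Rxra were then no longer called and Esr1 was added. The summed markers of hepatocytes (53962 to 76143 CPM at ZT8, 91070 to 99056 CPM at ZT20) and cholangiocytes (4.83 to 7.44 and 11.9 to 12.3 CPM) also separated by time in wild-type mice, and their part in these differences was not tested. Alb made up most of the hepatocyte sum. Of the 4 hepatocyte markers 2 were called higher at ZT20, Alb among them (log2 0.82, adjusted p = 0.00507, edgeR). Cyp2e1 was called lower (log2 -0.69, adjusted p = 0.00012, edgeR). Both genotypes were compared with mice of their own, and whether a receptor's time difference depends on the genotype was tested with the interaction.

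Ppard encodes PPARδ, a fatty acid receptor that is known for oxidative metabolism in muscle and liver, and lies on chromosome 17 (chr17:28232700-28301474, plus strand, GRCm38). It had 7.80, 8.77 and 9.20 CPM in the wild-type mice at ZT8 and 73.4, 60.7 and 46.6 CPM at ZT20. In the Rev-erbα-/- mice it had 15.9, 14.3 and 19.0 CPM at ZT8 and 46.1, 46.6 and 45.3 CPM at ZT20. All livers at ZT20 were above all livers at ZT8, and at ZT8 every Rev-erbα-/- liver was above every wild-type liver. The time difference was 7.02-fold in wild-type mice (log2 2.81, SE 0.15, adjusted p = 3.3e-08 by edgeR) and 2.80-fold in Rev-erbα-/- mice (log2 1.48, SE 0.14, adjusted p = 2.1e-05). Both calls were kept in all 19 alternatives.

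Rxrg, the least abundant RXR gene in liver, was higher at ZT20 in both genotypes. It had 3.502, 3.836 and 3.711 CPM in wild-type mice at ZT8 and 8.37, 6.28 and 5.99 CPM at ZT20 (log2 0.90, SE 0.15, adjusted p = 0.0005, edgeR). The Rev-erbα-/- mice had 3.06, 4.00 and 3.92 CPM at ZT8 and 6.00, 6.27 and 6.54 CPM at ZT20 (log2 0.78, SE 0.16, adjusted p = 0.00333). The times did not overlap in either genotype. The orphan receptors Nr2c1 (TR2) and Nr6a1 (GCNF), both known as repressors, were also higher at ZT20 in both genotypes, by log2 0.48 (SE 0.079, adjusted p = 0.00038) and 0.53 (SE 0.11, adjusted p = 0.00229) in wild-type mice and by 0.47 (SE 0.079, adjusted p = 0.00088) and 0.70 (SE 0.11, adjusted p = 0.0006) in Rev-erbα-/- mice. Nr2c1 ranged from 14.5 to 16.2 CPM over the 6 livers at ZT8 and from 19.95 to 22.1 CPM over the 6 at ZT20, so that the spread between mice was small against the difference.

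Ppara encodes PPARα, the receptor that drives hepatic fatty acid oxidation on fasting (chr15:85734983-85802819, plus strand). It had 207, 222 and 240 CPM in wild-type mice at ZT8 and 114, 107 and 124 CPM at ZT20. Its values in Rev-erbα-/- mice were 132, 172 and 221 CPM at ZT8 and 121, 104 and 92.1 CPM at ZT20. It fell by 0.96 on the log2 scale in wild-type mice (SE 0.16, adjusted p = 0.00076, edgeR) and by 0.73 in Rev-erbα-/- mice (SE 0.16, adjusted p = 0.0076), and both calls were kept in all 19 alternatives. Ppara and Ppard thus had opposite time differences in both genotypes.

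Thrb encodes the thyroid hormone receptor β, the main thyroid hormone receptor of hepatocytes (chr14:17660261-18038090, plus strand). It had 60.8, 53.6 and 52.5 CPM in wild-type mice at ZT8 and 83.6, 85.4 and 89.0 CPM at ZT20. The values in Rev-erbα-/- mice were 61.2, 59.5 and 52.0 CPM at ZT8 and 71.1, 65.3 and 60.9 CPM at ZT20. The 3 wild-type livers at ZT20 were above the other 9. Thrb rose at ZT20 in wild-type mice (log2 0.63, SE 0.083, adjusted p = 5.2e-05, edgeR), and in Rev-erbα-/- mice the difference was 0.19 (SE 0.083, adjusted p = 0.128) with overlapping groups.

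Rxra, the main partner of the other receptors, had 603, 668 and 668 CPM in wild-type mice at ZT8 and 481, 467 and 516 CPM at ZT20. It fell by 0.41 on the log2 scale (SE 0.087, adjusted p = 0.00288, edgeR), and without both livers of high Saa1 by 0.31 (adjusted p = 0.103). In Rev-erbα-/- mice the difference was -0.19 (SE 0.087, adjusted p = 0.165), from 514, 516 and 579 CPM to 457, 461 and 496 CPM. The highest Rxra levels were thus those of the wild-type livers at ZT8. The genotype difference at ZT8 did not pass (log2 -0.27, adjusted p = 0.0704, edgeR), and the interaction did not pass either (adjusted p = 0.35).

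Among the other receptors called in wild-type mice, Nr2f2 (COUP-TFII) was lower at ZT20 (39.2 ± 4.4 CPM at ZT8, 27.1 ± 3.4 CPM at ZT20, n = 3, log2 -0.53, SE 0.13, adjusted p = 0.00596, edgeR). Nr1h2 (LXRβ) was lower as well (36.2 ± 1.8 and 29.6 ± 1.7 CPM, log2 -0.29, adjusted p = 0.0135), a call lost without wild-type ZT8 replicate 2 (adjusted p = 0.07), without wild-type ZT20 replicate 2 (adjusted p = 0.0749) and without both livers of high Saa1 (adjusted p = 0.195). Nr1i2 (PXR) was higher (76.8 ± 6.8 and 94.7 ± 10.1 CPM, log2 0.30, adjusted p = 0.0257), with the calls lost without wild-type ZT8 replicate 2 or 3, without ZT20 replicate 1 or 3, and without both livers of high Saa1 (adjusted p = 0.51). In Rev-erbα-/- mice none of Nr2f2, Nr1h2 and Nr1i2 passed (adjusted p = 0.945, 0.756 and 0.795), and their interactions did not pass either (adjusted p = 0.114, 0.244 and 0.153).

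Nr2f6, an orphan receptor of the COUP-TF group, was higher at ZT20 (45.4 ± 3.6 and 56.3 ± 2.7 CPM, log2 0.31, adjusted p = 0.00836, edgeR), and 54.4% of its exon bases are shared with Ocel1 on the opposite strand. The counting did not use strand, so that reads in the shared bases cannot be assigned, and the level is uncertain. Nr4a2 (NURR1) had 15, 11 and 11 reads in wild-type mice at ZT8 and 5, 2 and 5 reads at ZT20, and 1 to 14 reads in the Rev-erbα-/- mice. It passed the filter on low counts only through the wild-type ZT8 group, where it was high, and the call (log2 -1.63, SE 0.56, adjusted p = 0.043) was lost in 10 of 19 alternatives, DESeq2 included (adjusted p = 0.079).

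**Figure D2:**
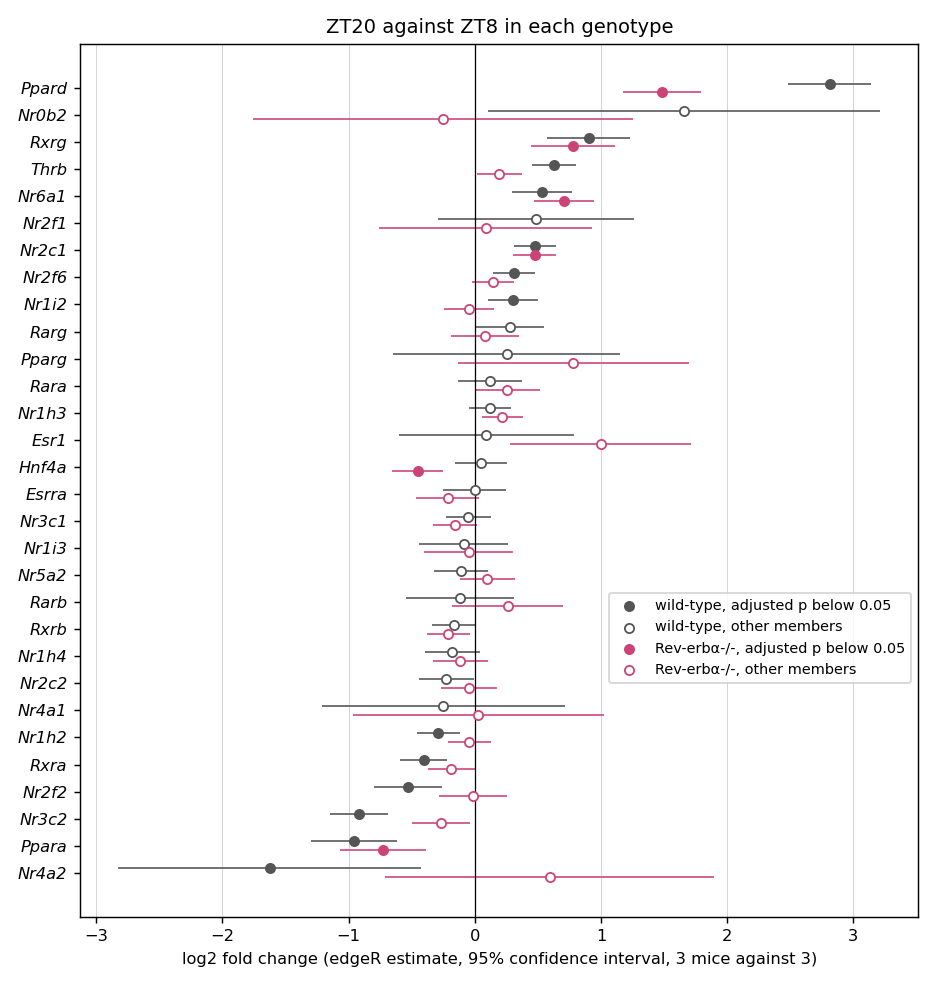
Difference between ZT20 and ZT8 on the log2 scale for each of the 30 receptors in wild-type (grey) and Rev-erbα-/- mice (pink), with 95% confidence intervals from edgeR; filled points passed an adjusted p of 0.05. Ppard is farthest to the right in wild-type mice (2.81) and Ppara and Nr4a2 are the lowest, and 13 wild-type and 6 Rev-erbα-/- points are filled. Nr4a2 passed the filter on low counts only through the wild-type ZT8 group, where it was high.

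The promoters of the receptors were searched for the DNA elements through which clock factors act. RefSeq start sites of GRCm38.p6 gave 47 windows of 300 bases (250 before to 50 after the start) for 31 of the 33 receptors. Nr3c1 and Hnf4g had no usable window and were not searched. The element bound by REV-ERBα and the RORs was searched on both strands as TAGGTCA and as TGGGTCA, the E-box of the CLOCK and BMAL1 pair as CACGTG, and the D-box as TTATGTAA. TAGGTCA was in 0 of the 47 windows and in 2.61% of 32851 windows of all genes, and TGGGTCA was in 3 windows (6.38%, against 3.98% of all), those of Nr4a2, Rarb and Rxrg. The E-box was in 5 windows of 4 receptors, Nr0b2, Nr1i3, Rara and Thrb (10.64%, against 7.15% of all), and the D-box was in 0 (against 0.94%). A match is a description of letters and not of binding.

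The bases before the start site, as far as the first annotated exon, are shown for Ppard, which had the largest time difference and no match (chr17:28232504-28232699), for Rxrg, where the capitals mark TGGGTCA read on the minus strand with its first printed base at position -145 (chr1:167598112-167598361), and for the internal start site of Thrb, where the capitals mark the E-box at position -193 (chr14:17981394-17981528). All 3 are on the plus strand of GRCm38 and are printed 5′ to 3′ from the RefSeq windows.
Ppard: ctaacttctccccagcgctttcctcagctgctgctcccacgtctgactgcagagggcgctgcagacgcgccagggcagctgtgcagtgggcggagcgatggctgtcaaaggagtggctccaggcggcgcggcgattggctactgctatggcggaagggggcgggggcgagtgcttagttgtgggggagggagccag
Rxrg: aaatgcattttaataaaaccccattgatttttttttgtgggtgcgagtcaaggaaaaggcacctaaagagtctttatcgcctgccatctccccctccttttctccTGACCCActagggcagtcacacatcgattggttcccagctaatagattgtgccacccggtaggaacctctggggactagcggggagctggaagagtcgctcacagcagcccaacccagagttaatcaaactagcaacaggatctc
Thrb: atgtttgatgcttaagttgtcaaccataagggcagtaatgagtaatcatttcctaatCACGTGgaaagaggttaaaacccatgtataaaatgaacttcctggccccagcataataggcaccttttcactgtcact

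The comparison of Rev-erbα-/- with wild-type mice at ZT8 asked which receptors differ when REV-ERBα is at its high phase. Of the 30 receptors, 3 passed, against 8.45% of all genes: Ppard and Hnf4a were higher in Rev-erbα-/- mice (background 4.4%) and Nr3c2 was lower (background 4.04%). 11 receptors had an unadjusted p below 0.05, 2 of them higher and 9 lower. The share of all genes at that unadjusted threshold was not determined, so this count has no background and is not read as a result about the receptors. The median difference was -0.10 for the receptors and 0.00 for all genes, with 22 of the 30 receptors below 0. DESeq2 called 4, with Rxra added. Without both wild-type livers of high Saa1, 0 of the 3 were called by edgeR, with differences of 1.07 for Ppard (adjusted p = 0.0551), -0.51 for Nr3c2 (adjusted p = 0.116) and 0.40 for Hnf4a (adjusted p = 0.182).

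Ppard was 1.92-fold higher in Rev-erbα-/- mice at ZT8 (16.4 ± 2.4 and 8.59 ± 0.72 CPM, log2 0.94, SE 0.16, adjusted p = 0.00227, edgeR). At ZT20 it had 46.0 ± 0.63 CPM in Rev-erbα-/- and 60.2 ± 13.4 CPM in wild-type mice (log2 -0.39, SE 0.14, adjusted p = 0.171), where every Rev-erbα-/- liver was below every wild-type liver, although the nearest values were 46.56 and 46.57 CPM. The effects at ZT8 and ZT20 differed by 1.33 on the log2 scale (SE 0.21, adjusted p = 0.00189 for the interaction), a call kept in all 18 alternatives.

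Nr3c2, the gene of the mineralocorticoid receptor (chr8:76899442-77245012, plus strand), had 28.6, 29.9 and 31.2 CPM in wild-type and 23.5, 18.8 and 18.02 CPM in Rev-erbα-/- mice at ZT8. At ZT20 it had 15.2, 14.3 and 17.9 CPM in wild-type and 17.7, 15.6 and 16.8 CPM in Rev-erbα-/- mice. The wild-type livers at ZT8 were above all others, and the genotypes overlapped at ZT20. Nr3c2 was lower in Rev-erbα-/- mice at ZT8 by 0.57 on the log2 scale (SE 0.11, adjusted p = 0.00375, edgeR), and the difference at ZT20 was 0.08 (SE 0.11, adjusted p = 0.835). It fell by 0.92 from ZT8 to ZT20 in wild-type mice (SE 0.11, adjusted p = 1.7e-05), and the difference was -0.27 in Rev-erbα-/- mice (SE 0.11, adjusted p = 0.103). The effects at ZT8 and ZT20 differed by -0.65 (SE 0.15, adjusted p = 0.0198 for the interaction). This call was lost without wild-type ZT8 replicate 2, Rev-erbα-/- ZT8 replicate 2, or wild-type ZT20 replicate 1 or 2 (adjusted p = 0.0532 to 0.0665), and without both livers of high Saa1 (adjusted p = 0.133).

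Hnf4a (chr2:163506808-163572910, plus strand) had 763, 809 and 812 CPM in wild-type and 904, 994 and 1138 CPM in Rev-erbα-/- mice at ZT8. At ZT20 it had 858, 796 and 810 CPM in wild-type and 774, 734 and 708 CPM in Rev-erbα-/- mice. The genotypes did not overlap at either time, with Rev-erbα-/- above wild-type at ZT8 and below it at ZT20. The difference was 0.35 at ZT8 (SE 0.097, adjusted p = 0.0366, edgeR) and -0.15 at ZT20 (SE 0.096, adjusted p = 0.522), and the interaction was 0.50 (SE 0.14, adjusted p = 0.0415). The call at ZT8 was lost in 10 of 19 alternatives and that of the interaction in 11 of 18, with adjusted p up to 0.182 and 0.111. Within Rev-erbα-/- mice Hnf4a fell by 0.45 from ZT8 to ZT20 (SE 0.097, adjusted p = 0.00471), a call kept in all 19 alternatives, while the difference in wild-type mice was 0.05 (adjusted p = 0.761).

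At ZT20, when REV-ERBα is low, 1 of the 30 receptors passed, against 3.63% of all genes. Thrb was lower in Rev-erbα-/- mice by 0.39 on the log2 scale (65.8 ± 5.2 and 86.0 ± 2.7 CPM, SE 0.082, adjusted p = 0.0156, edgeR; background of lower genes 1.54%). No receptor was higher by edgeR (background 2.09%), 0 were higher at an unadjusted p below 0.05, and DESeq2 called 0 higher. The call for Thrb was lost without wild-type ZT20 replicate 2 or 3 or Rev-erbα-/- ZT20 replicate 2 or 3 (adjusted p = 0.0631 to 0.0722). Ppard was the receptor called without wild-type ZT20 replicate 3. The summed hepatocyte markers were also lower in the Rev-erbα-/- livers at ZT20 (79728 to 89134 and 91070 to 99056 CPM), with 0 of 4 called by edgeR, also at an unadjusted p below 0.05, and their part in this difference was not tested. Alb made up most of these sums (55837 to 66191 and 70282 to 77215 CPM). The median log2 difference of the 4 markers was -0.001. At ZT8 Thrb had a difference of 0.05 (SE 0.084, adjusted p = 0.779).

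The wild-type livers at ZT8 enter the genotype comparison at ZT8, the interaction and the time comparison in wild-type mice, so these comparisons share samples. The interaction, which tests whether the genotype effects at ZT8 and ZT20 differ, was past the threshold for 4 of the 30 receptors, against 5.88% of all genes. Ppard, Hnf4a and Thrb had a more positive effect at ZT8 (background 3.05%) and Nr3c2 a more negative one (background 2.83%). The interaction of Thrb was 0.43 (SE 0.12, adjusted p = 0.0402, edgeR) and was lost in 10 of 18 alternatives. Without both wild-type livers of high Saa1 only Ppard was called among the receptors (log2 1.46, adjusted p = 0.0215).

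**Figure D3:**
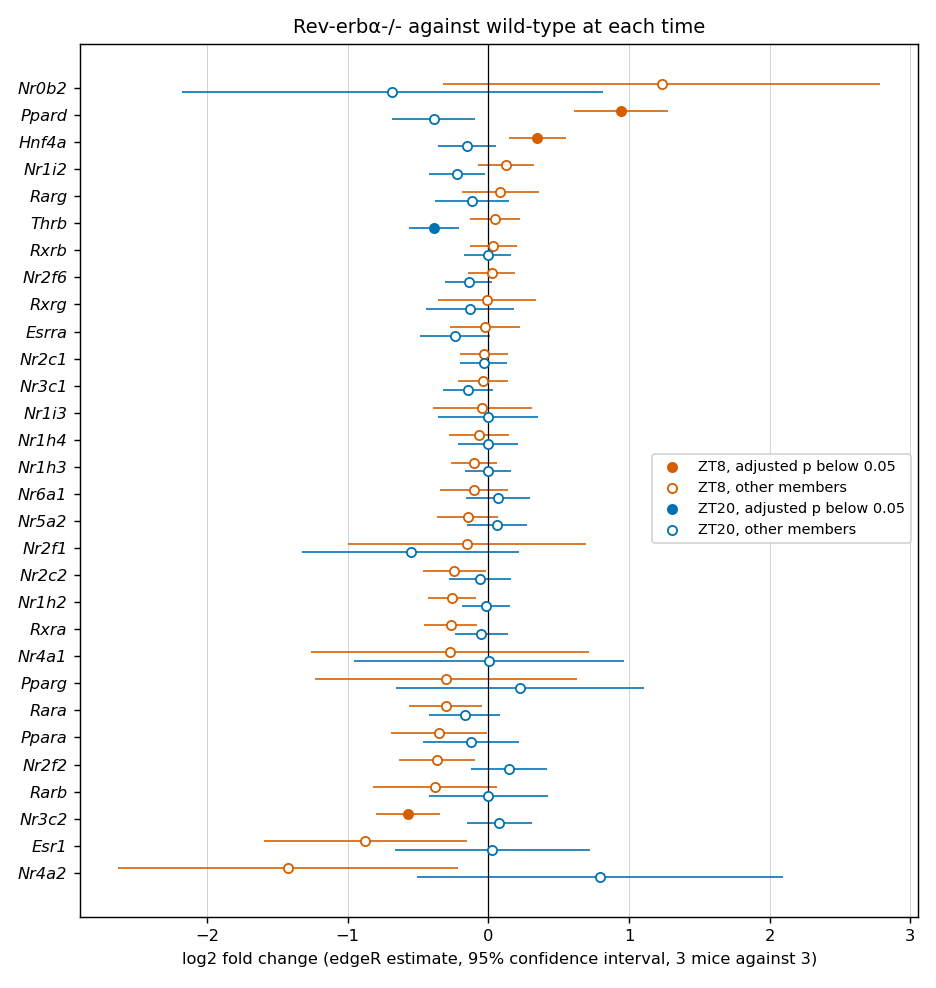
Difference between Rev-erbα-/- and wild-type mice on the log2 scale at ZT8 (orange) and ZT20 (blue) for each of the 30 receptors, with 95% confidence intervals from edgeR; filled points passed an adjusted p of 0.05. Ppard (0.94), Hnf4a (0.35) and Nr3c2 (-0.57) are filled at ZT8 and Thrb (-0.39) at ZT20.

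**Figure D4:**
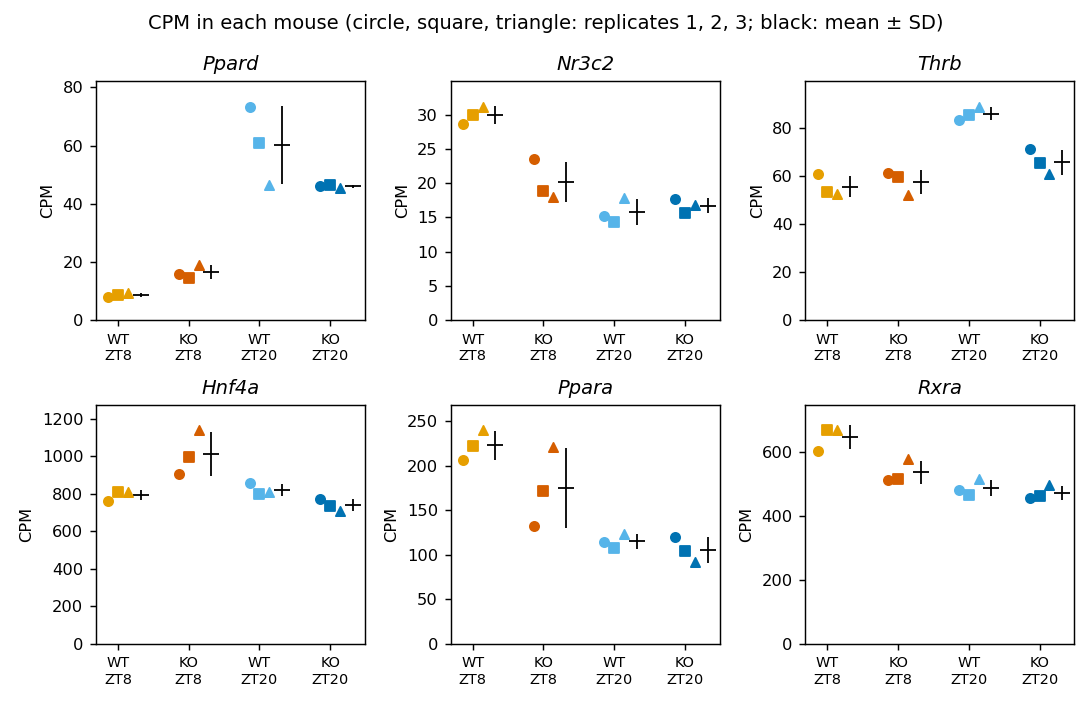
CPM of 6 receptors in each mouse (circle, square and triangle for replicates 1, 2 and 3; black bars, mean ± SD of 3 mice) in wild-type (WT) and Rev-erbα-/- (KO) livers at ZT8 and ZT20, on linear axes from 0. Ppard separates by time in both genotypes, Nr3c2 is highest in the wild-type livers at ZT8, and Thrb is highest in the wild-type livers at ZT20.

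Relative to their means, Nr0b2 and Esr1 varied more between the wild-type livers at ZT8 (coefficient of variation 98.7% and 50.3%) than in any other group. Nr0b2, the SHP gene, had 37.0, 13.3 and 2.85 CPM in wild-type replicates 1, 2 and 3 at ZT8, in which Saa1 had 60.8, 4972 and 6489 CPM. In Rev-erbα-/- mice at ZT8 it had 48.9, 43.8 and 34.1 CPM, and at ZT20 it had 38.9, 51.4 and 80.3 CPM in wild-type and 41.3, 34.1 and 30.9 CPM in Rev-erbα-/- mice. The livers with low Nr0b2 were thus both livers with high Saa1. Esr1 had 17.9, 34.6 and 53.3 CPM in the wild-type mice at ZT8, 17.3 to 20.8 CPM in the Rev-erbα-/- mice at ZT8, and 35.9 to 39.9 CPM over the 6 livers at ZT20. Its lowest wild-type value at ZT8 was that of the liver with low Saa1, within the range of the Rev-erbα-/- livers. Neither passed at ZT8 (Nr0b2 log2 1.23, SE 0.68, adjusted p = 0.321; Esr1 log2 -0.88, SE 0.32, adjusted p = 0.136, edgeR). Without wild-type ZT8 replicate 1, and so with the livers of high Saa1 only, both were called at ZT8 and 6 receptors passed in all. Between the times in Rev-erbα-/- mice, where its values did not overlap, Esr1 did not pass by edgeR (log2 0.996, SE 0.32, adjusted p = 0.0621). It was called there by DESeq2, with only the 6 samples compared, and without wild-type ZT8 replicate 1 or 3. Without both livers of high Saa1, Esr1 was called between the times in wild-type and in Rev-erbα-/- mice. The part of the acute-phase response in these values was not tested.

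**Figure D5:**
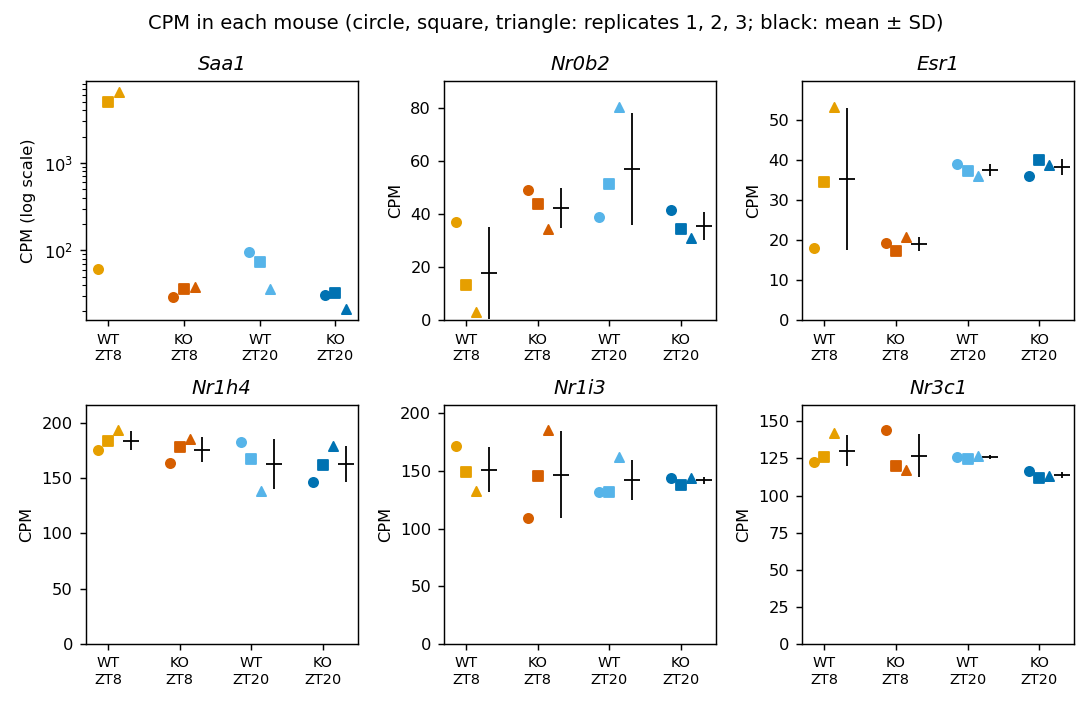
CPM in each mouse (circle, square and triangle for replicates 1, 2 and 3; black bars, mean ± SD of 3 mice, not drawn for Saa1) of the acute-phase gene Saa1 (log axis) and of 5 receptors (linear axes from 0). In the wild-type livers at ZT8 (WT ZT8) with high Saa1, replicates 2 and 3, Nr0b2 is lower and Esr1 higher than in replicate 1, while Nr1h4, Nr1i3 and Nr3c1 lie within or near the range of the other groups.

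Nr3c1, the glucocorticoid receptor gene on chromosome 18, had 123, 126 and 143 CPM in wild-type and 144, 120 and 117 CPM in Rev-erbα-/- mice at ZT8. At ZT20 it had 126, 124 and 127 CPM in wild-type and 117, 112 and 113 CPM in Rev-erbα-/- mice. The genotypes overlapped at ZT8 (log2 -0.04, 95% interval -0.21 to 0.14, adjusted p = 0.836, edgeR). At ZT20 the Rev-erbα-/- livers were all below the wild-type livers, with a difference of -0.14 (95% interval -0.32 to 0.03, adjusted p = 0.475) that did not pass.

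The bile acid and sterol receptors Nr1h4 and Nr1h3 had no call in any of the 5 comparisons. Nr1h4 ranged from 138 to 193 CPM over the 12 livers, with a genotype difference of -0.07 at ZT8 (95% interval -0.28 to 0.15) and of 0.00 at ZT20 (95% interval -0.22 to 0.21). Nr1h3 ranged from 94.5 to 122 CPM, and its nearest value to a call was between the times in Rev-erbα-/- mice (log2 0.22, adjusted p = 0.0628, edgeR). Nr1i3 (CAR) ranged from 110 to 185 CPM with both ends in the Rev-erbα-/- livers at ZT8, and 74.9% of its exon bases are shared with Tomm40l on the opposite strand, so its level is uncertain. Nr5a2 (LRH-1), which cooperates in bile acid synthesis, ranged from 46.5 to 65.2 CPM, and Esrra (ERRα), a regulator of mitochondrial genes, from 23.8 to 37.1 CPM, both without a call.

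The retinoic acid receptor genes had no call either. Rara had 18.7 to 21.3 CPM in wild-type and 14.6, 13.5 and 20.1 CPM in Rev-erbα-/- mice at ZT8 (log2 -0.30, SE 0.12, adjusted p = 0.139, edgeR), and at ZT20 the Rev-erbα-/- livers (18.4 to 19.96 CPM) were below the wild-type livers (20.4 to 22.9 CPM). Rara lies 152 kb from Nr1d1 on chromosome 11, so in a mixed background the alleles that travel with the targeted locus and the genotype cannot be told apart for it. Rarg ranged from 5.43 to 7.65 CPM and Rarb from 3.62 to 8.03 CPM, with 38.4% of the exon bases of Rarb shared with Top2b and Gm48162. Nr2c2 (TR4), with 31.2% shared, ranged from 17.1 to 24.5 CPM.

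Pparg, which is known for lipid storage, ranged from 4.16 to 17.4 CPM and varied widely within groups, by a coefficient of variation of 21.3% to 45.9%. Its difference between the times in Rev-erbα-/- mice was 0.78 (95% interval -0.14 to 1.69, adjusted p = 0.233, edgeR), an interval that holds both 0 and the 1.48 of Ppard. Rxrb ranged from 29.6 to 37.9 CPM. Nr2f1 (0.351 to 1.37 CPM) and Nr4a1 (0.311 to 1.52 CPM) rested on 9 to 31 and 7 to 34 reads per liver, and differences of the size seen for Thrb were not detectable for them at this depth.

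Coregulators that nuclear receptors recruit were then counted. Of all genes, 4.4% were called higher and 4.04% lower in Rev-erbα-/- mice at ZT8, and 2.09% and 1.54% at ZT20. These shares are the background for this and all gene lists below. Of 15 coactivators, 0 were higher and 3 lower in Rev-erbα-/- mice at ZT8, namely Ppargc1b (5.99 and 11.4 CPM, log2 -0.92, adjusted p = 0.00166, edgeR), Ppargc1a (9.04 and 14.8 CPM, log2 -0.71, adjusted p = 0.00525) and Crebbp (log2 -0.28, adjusted p = 0.0486). The median of the 15 was -0.04. 6 of the 15 had an unadjusted p below 0.05, a count without a background that is not read as a result about the coactivators. The 3 calls were lost without both livers of high Saa1. Ppargc1a and Ppargc1b encode PGC-1α and PGC-1β, which coactivate PPARα and ERRα among others. At ZT20 Ncoa4 alone was lower (log2 -1.96, adjusted p = 1.3e-05). In wild-type mice 1 coactivator was higher and 7 were lower at ZT20 than at ZT8 (background 13.8% and 13.9%). Ncoa4 (log2 2.59) and Ppargc1b (log2 -1.59, adjusted p = 3.5e-06, edgeR) led them. Without both livers of high Saa1, 1 was higher and 3 were lower, namely Kat2b, Ppargc1b and Pprc1. Of 12 corepressors, Lcor was higher in Rev-erbα-/- mice at ZT8 (log2 0.55, adjusted p = 0.0359), none passed without both livers of high Saa1, and 0 passed at ZT20 by edgeR, with 1 at an unadjusted p below 0.05.

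Known target genes of the receptors were counted in the same way. Of 15 PPARα targets, 2 were higher and 1 lower in Rev-erbα-/- mice at ZT8 (background 4.4% and 4.04%), with a median of 0.03. Fgf21, the fasting hormone, had 4.00 and 0.50 CPM (log2 2.97, SE 0.34, adjusted p = 8.3e-05, edgeR), Pdk4 had 6.96 and 2.02 CPM (log2 1.80, adjusted p = 0.00057), and Cpt1a, the gate of mitochondrial fatty acid import, was lower (log2 -0.42, adjusted p = 0.0384). Fgf21 and Pdk4 were also called without both livers of high Saa1, and Cpt1a was not. At ZT20 Fgf21 was lower in Rev-erbα-/- mice (0.367 and 1.72 CPM, log2 -2.19, adjusted p = 0.00334), and its interaction was 5.16 (SE 0.51, adjusted p = 2e-05). The levels in wild-type mice at ZT8 and in Rev-erbα-/- mice at ZT20 rest on few reads, as 3 reads are 0.115 to 0.17 CPM. The sizes of these log2 values are therefore uncertain.

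Of 10 LXR targets, 1 was higher and 3 lower at ZT8 (background 4.4% and 4.04%, median -0.23). The sterol exporters Abcg5 and Abcg8 were lower in Rev-erbα-/- mice (85.2 and 145 CPM, log2 -0.77, adjusted p = 3.7e-05, and 116 and 220.1 CPM, log2 -0.93, adjusted p = 4.3e-05, edgeR), and both were also called without both livers of high Saa1. Abcg1 was called lower and Lpl higher with those livers, and neither was called in the fit without them, which has fewer mice. The LXR genes themselves had differences of -0.10 (Nr1h3, adjusted p = 0.463) and -0.26 (Nr1h2, adjusted p = 0.0556) in that comparison. Of 12 HNF4α targets, Cyp8b1, the sterol 12-alpha-hydroxylase of bile acid synthesis, and Ugt2b1 were higher at ZT8 (log2 1.22, adjusted p = 0.00742, and 0.60, adjusted p = 0.00751), and 0 were lower (median 0.21). Neither passed without both livers of high Saa1.

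Of 6 FXR targets tested, Osgin1 and Abcb11, the bile salt export pump, were higher at ZT8 (log2 0.86 and 0.39, adjusted p = 0.0264 and 0.0457, edgeR), neither of them without both livers of high Saa1. Of 11 CAR and PXR targets tested, Cyp2c55 (2.38 and 0.43 CPM, log2 2.41, adjusted p = 0.00025) and Gstm3 (log2 0.95, adjusted p = 0.0373) were higher. Cyp2c55 was also called without those livers and at ZT20 (log2 1.09, adjusted p = 0.0234). Its level in wild-type mice at ZT8 rests on few reads, so the size of the log2 value at ZT8 is uncertain. Of 12 glucocorticoid receptor targets, Tsc22d3 (GILZ) was higher at ZT8 (176 and 120.4 CPM, log2 0.55, adjusted p = 0.00558) and lower at ZT20 (170 and 226 CPM, log2 -0.42, adjusted p = 0.0457), with an interaction of 0.97 (adjusted p = 0.0014). The median of the 12 was -0.32 at ZT8, opposite in sign to Tsc22d3, and -0.04 at ZT20. Without both livers of high Saa1 the call of Tsc22d3 at ZT8 was lost, and those at ZT20 and for the interaction were made. Lcn2, also an acute-phase gene, was lower at ZT8 (log2 -6.03, adjusted p = 0.0381), from 3.30, 307 and 393 CPM in the wild-type livers, and was not called without both livers of high Saa1. Of 6 thyroid hormone receptor targets, Idh3a was higher at ZT8 (log2 0.57, adjusted p = 0.00076), and at ZT20, where Thrb was lower, 0 passed by edgeR and 2 had an unadjusted p below 0.05. Without both livers of high Saa1, Dio1, the hepatic deiodinase, was called lower there. Of 5 retinoic acid receptor targets tested, 0 passed at either time, also at an unadjusted p below 0.05.

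Of 11 immediate early genes tested, which respond to the same stimuli as the NR4A genes, Atf3 was higher (log2 1.41, adjusted p = 0.00654, edgeR) and Junb lower (log2 -0.83, adjusted p = 0.00828) at ZT8, of which Junb alone was called without both livers of high Saa1. The 16 acute-phase genes had 8 lower and 0 higher in Rev-erbα-/- mice at ZT8 (background 4.04% and 4.4%, median -1.45). Their summed level was 19987, 43922 and 54446 CPM in the wild-type livers and 19147 to 23492 CPM in the Rev-erbα-/- livers. Without both livers of high Saa1, 0 acute-phase genes passed at ZT8.

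Markers of other liver cells were summed for each liver. The 4 Kupffer cell markers had 260, 342 and 413 CPM in the wild-type livers at ZT8, in the order of Saa1, and 230 to 319 CPM in the other 9. The 4 cholangiocyte markers had 4.83 to 7.44 CPM in wild-type and 9.97 to 15.5 CPM in Rev-erbα-/- mice at ZT8, where Sox9 was the marker called (log2 1.20, adjusted p = 0.00126, edgeR), and 0 were called without both livers of high Saa1. At ZT20 they had 11.9 to 12.3 CPM in wild-type and 13.5 to 19.2 CPM in Rev-erbα-/- mice, so that the wild-type livers also separated by time. The 4 endothelial markers ranged from 193 to 229 CPM and the 4 stellate cell markers from 205 to 288 CPM over the 12 livers. The 4 hepatocyte markers summed to 53962 to 76143 CPM in wild-type and 60503 to 86111 CPM in Rev-erbα-/- mice at ZT8, which overlap. At ZT20 they summed to 91070 to 99056 CPM in wild-type mice, above all livers at ZT8, and to 79728 to 89134 CPM in Rev-erbα-/- mice, below all wild-type livers of that time. Alb made up most of each sum. Cyp2e1 was lower at ZT20 than at ZT8 in wild-type mice (6365 and 10289 CPM), so the sum does not stand for all 4 markers. The part of cell composition in the receptor differences between genotypes and times was not tested.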

How the data were processed

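Liver RNA of 12 mice was analysed, 3 per genotype and time. Per the labels and the methods, the authors made poly(A) libraries, sequenced 75-base reads, mapped them to mm10 with TopHat and counted reads per gene symbol with HTSeq (union mode, no strand, alignment quality of at least 10). They deposited raw counts per gene for each sample, without normalization. The 5 summary lines that name no gene were left out; reads without a gene came to 9.66% to 11.5% of the reads on genes. Strandless counting cannot assign reads in exons shared by overlapping genes, so such receptors were treated as uncertain.

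The low-count filter was filterByExpr (minimum count 10), with TMM scaling. A quasi-likelihood model with 4 group means over all 12 samples was fitted in edgeR 4.0.16 (R 4.3.3), with Benjamini-Hochberg adjustment within each contrast. The fit was also run on simulated counts with changes set in Rev-erbα-/- mice at ZT8 only. That simulation had no outlying livers like those of high Saa1, so it does not bear on calls that rest on them. With 3 mice against 3, an exact permutation test cannot go below p = 0.1, so single receptors were judged by the fit across all genes. RPKM is CPM per kilobase of union exons (GENCODE M21, GRCm38). The receptors and all lists were chosen with earlier results of these data known. All 33 receptors were accounted for, with at most 4 genes named per list and contrast by smallest adjusted p. Alternatives were DESeq2 1.42.0, other size factors and filters, fits on fewer samples and the replicate number as a block; counting the companion lists without both livers of high Saa1 was chosen after seeing the data.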

Additional observations from a re-analysis of the deposited data

Results flagged for a closer look

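For 4 receptors the difference between Rev-erbα-/- and wild-type mice was not the same at ZT8 as at ZT20, by a test of that difference (edgeR quasi-likelihood, adjusted over 14488 genes, 3 mice per group). The effect at ZT8 minus that at ZT20 was 1.33 on the log2 scale for Ppard (SE 0.21, adjusted p = 0.00189), 0.50 for Hnf4a (SE 0.14, adjusted p = 0.0415), 0.43 for Thrb (SE 0.12, adjusted p = 0.0402) and -0.65 for Nr3c2 (SE 0.15, adjusted p = 0.0198). For Ppard the 3 Rev-erbα-/- livers were all above the 3 wild-type livers at ZT8 and all below them at ZT20, where the nearest values were 46.56 and 46.57 CPM. Hnf4a showed the same order. Nr3c2 was separated between the genotypes at ZT8 only and Thrb at ZT20 only. Without both wild-type ZT8 livers of high Saa1, the interaction of Ppard passed (adjusted p = 0.0215), while those of Hnf4a, Thrb and Nr3c2 did not (adjusted p = 0.101, 0.348 and 0.133).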

How the results depend on the processing

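Of 27 calls for single receptors, 14 were kept in every alternative run, 13 were lost in at least 1 and 0 changed sign. Over the fits that leave out 1 liver, the receptors called ranged from 2 to 6 at ZT8, 0 to 1 at ZT20, 1 to 6 for the interaction, 10 to 14 between the times in wild-type mice and 6 to 8 in Rev-erbα-/- mice. At ZT8, 6 were called without wild-type ZT8 replicate 1 (Esr1, Nr0b2, Nr2c2 and Rxra added, Hnf4a lost) and 6 without Rev-erbα-/- ZT8 replicate 3 (Nr1h2, Ppara, Rara and Rxra added, Hnf4a lost). The interaction had 1 call, Ppard, without replicate 2 of wild-type ZT8, of Rev-erbα-/- ZT8 or of wild-type ZT20, or without wild-type ZT20 replicate 1. It had 2 without wild-type ZT8 replicate 3, wild-type ZT20 replicate 3 or Rev-erbα-/- ZT20 replicate 2 or 3. Without both wild-type ZT8 livers of high Saa1, the counts were 0 at ZT8, 1 at ZT20, 1 for the interaction, 8 in wild-type mice and 7 in Rev-erbα-/- mice; fewer samples enter that fit. With only the 6 samples compared, 2 were called at ZT8, and the interaction, which needs all groups, was not run. No pairing by replicate number was seen (correlation of deviations -0.083 to 0.074 over 18 same-numbered pairs, -0.067 to 0.063 over 36 other pairs). With few mice this cannot show that same-numbered mice were unrelated. With the replicate block 2 receptors were called at ZT8, 1 at ZT20, 3 for the interaction, 12 in wild-type and 6 in Rev-erbα-/- mice, and the calls lost were those of Hnf4a (adjusted p = 0.0532 at ZT8 and 0.0622 for the interaction) and Nr4a2 (adjusted p = 0.0605). DESeq2 called 4, 1, 4, 12 and 7. At this depth Vdr, Hnf4g and Nr4a3 gave no comparison.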
